A study of Zea mays with 192 samples.

Results

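The gene models described here are those of the maize genome that gave RNA counts in many leaf protoplasts of one transfection pool, called here the pre-meiotic pool, and in few of the other. A gene model was a member when it had at least 1 count in at least 20% of pre-meiotic cells and in a share of the bHLH pool's cells at least 5 times lower. The table has 41075 gene model rows, and 128 of them are members. From the same rule 8 genes were left out by name, of which 5 meet it (nam1, ocl4, OFP16, zfl1 and opr3) and 3 do not. The members were thus chosen by their detection in the cells of the 2 pools, and every difference between the pools given here describes that choice and supports nothing beyond it.

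Both pools were single protoplasts, that is, cells freed of their walls, from leaves of maize seedlings of the inbred line B73. The seedlings had grown in darkness for 10 to 12 days. In one pool the protoplasts had received a mixture of transcription factors (TFs) labelled pre-meiotic, and in the other a mixture of basic helix-loop-helix (bHLH) factors. Each pool had 96 cells. All cells share the B73 genotype, the growth in darkness and a transfection, and no untransfected cells were analysed here. Leaves of more than 10 seedlings were pooled for each isolation of protoplasts. The labels name neither the promoter of the constructs nor separate transfections, so each pool counts as 1 sample and no test between the pools was made.

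Counts are of unique molecular identifiers (UMIs), 1 for each captured RNA, at the 3' end of polyadenylated transcripts, so a level does not depend on gene length. TPM here means UMIs per 1000000 UMIs of the same cell. The pre-meiotic pool held 3029855 UMIs with a median of 26488 per cell, and the bHLH pool 3274116 UMIs with a median of 28578 per cell. Depth per cell ran from 953 to 88243 UMIs in the pre-meiotic pool and from 4699 to 148894 UMIs in the bHLH pool. Fewer than 2000 genes were seen in 22 pre-meiotic cells and in 2 cells of the bHLH pool. No pair of cells had identical values. The leaf label was set against marker genes. At least 1 of 4 C4 mesophyll genes was seen in 77 and 71 cells of the pre-meiotic and bHLH pools, with a highest summed level of 1137 and 410 TPM. Of these, Ppdk1 was seen in 73 and 70 cells, and each of the others in 11 to 16 pre-meiotic cells and 3 to 7 cells of the bHLH pool. Of 2 bundle sheath genes, me3 was seen in 24 and 25 cells and ssu1, the Rubisco small subunit, in 1 and 0 cells. The epidermal gene ocl1 was seen in 37 pre-meiotic cells and 53 of the bHLH pool. The anther tapetum genes ms26 and ms8, which leaf cells should lack, were seen in no pre-meiotic cell and each in 1 cell of the bHLH pool.

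As background, transcription factors bind DNA near genes and raise or lower their transcription. When a factor is brought into a leaf cell on a plasmid, the RNA of that plasmid is polyadenylated like any other. RNA read at its 3' end can then be counted on the gene model of the factor itself. PhasiRNAs, the small RNAs that the study's design text is about, are cut in anthers from long PHAS transcripts.

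The rule took 1.52% of the 8737 gene models seen in at least 20% of pre-meiotic pool cells, or 0.324% of all gene models, with the left-out genes that meet it counted in. The mirrored rule, which asks for 20% of the bHLH pool's cells and in the pre-meiotic pool a share of cells lower by 5 times or more, took 77 gene models, or 0.809% of 9521. Most members lay close to the lower threshold. Of the 128, 87 were seen in under 30% of pre-meiotic pool cells and 12 in at least 50%. The median member was seen in 27.1% of pre-meiotic pool cells and in 3.12% of bHLH pool cells. In the bHLH pool 10 members had no UMI, 48 had 1 to 3 UMIs and 70 had 4 to 12 UMIs. A count of 0 of 96 cells allows a share of cells with a UMI of up to 3.12% by a floor of 3 counts, or 3.77% by the exact interval. Neither limits the share of cells that express the gene.

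**Figure D1:**
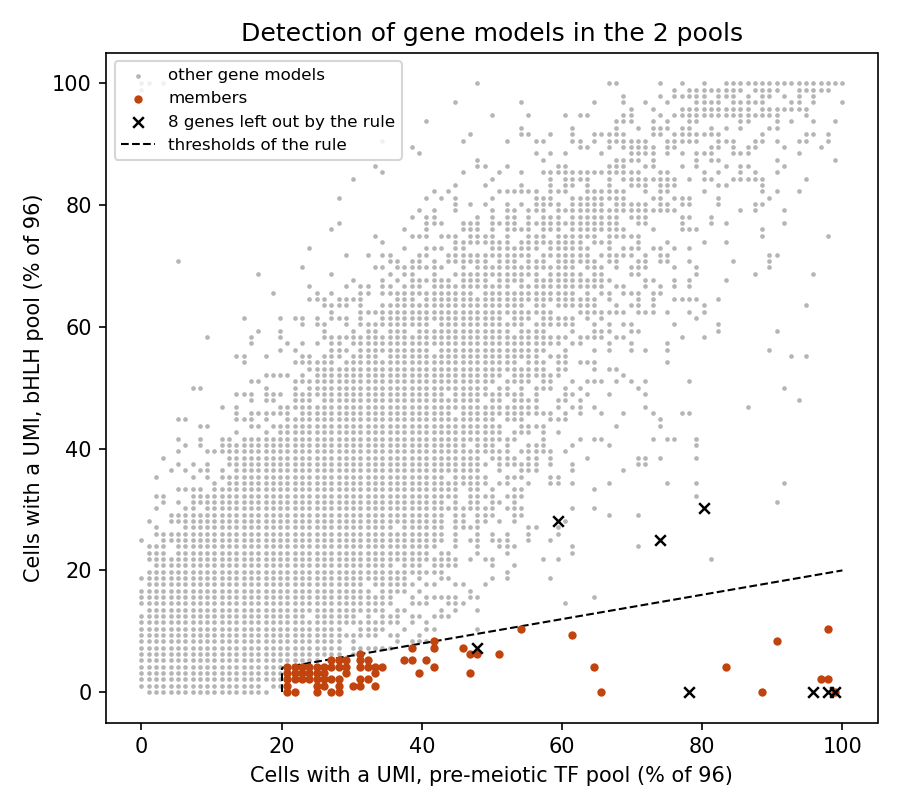
Share of the 96 cells of each pool in which a gene model had a UMI, with the pre-meiotic pool on the x axis and the bHLH pool on the y axis. Each point is 1 or more of the gene models with a UMI, and dashed lines mark the thresholds of the rule. Most of the 128 members crowd near the 20% threshold, and 12 lie at 50% or beyond.

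Just inside the first threshold lay GRMZM2G421231, GRMZM2G103013, GRMZM2G483598, GRMZM2G115398 and GRMZM2G387381, each at 20.8% of pre-meiotic pool cells. Just outside it lay GRMZM2G163572, GRMZM2G125196, GRMZM2G099860, GRMZM2G035821 and GRMZM2G446741 at 19.8%, a difference of a single cell. Near the second threshold, the bHLH pool share was 20.0% of the pre-meiotic share for GRMZM2G157727, GRMZM2G353276, GRMZM2G108135, GRMZM2G344993 and GRMZM2G039113. It was 20.5% to 20.8% for GRMZM2G069335, GRMZM2G424577, GRMZM2G076029, GRMZM2G022347 and GRMZM2G070167, which are not members.

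The members were split into 2 tiers by mean level after the values were seen. No natural gap marks the cut: the members on its 2 sides averaged 155 and 90.0 TPM in the pre-meiotic pool. Within the upper tier, neighbouring means of 688 and 324 TPM lay further apart. The upper tier holds 7 gene models with means of 155 to 790 TPM in the pre-meiotic pool. The other 121 had means of 6.18 to 90.0 TPM, with a median of 13.2 TPM. In the bHLH pool no member averaged more than 4.81 TPM. The 7 gave 10176 UMIs in the pre-meiotic pool and 29 in the bHLH pool, and the 121 gave 5993 and 465 UMIs. The 7 thus held 62.9% of all member UMIs of the pre-meiotic pool. All members together took 0.534% of the UMIs of the pre-meiotic pool and 0.0151% of those of the bHLH pool.

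The 7 are GRMZM2G438438, GRMZM2G036966, GRMZM2G120151, GRMZM2G108865, GRMZM2G378490, GRMZM2G301089 and GRMZM2G085964. Each is a protein-coding gene in RefSeq, and none has an informative name there, so no role is given. GRMZM2G438438 ranged over the pre-meiotic pool's cells from 0 through a median of 734 to 2506 TPM, while in the bHLH pool its median was 0 and its highest cell 19.1 TPM. It was seen in 94 pre-meiotic cells and in 2 of the bHLH pool. Its ratio of summed UMIs, scaled to each pool's total and with the pre-meiotic pool on top, was 1127, with an exact interval of 312 to 9313. This and the later intervals are at the 95% level and reflect counting error alone. The highest bHLH pool cell thus lay far under the lower quartile of the pre-meiotic cells, 277 TPM.

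GRMZM2G036966 had a median of 618 TPM and a highest cell of 4771 TPM in the pre-meiotic pool, against a median of 0 and a highest cell of 128 TPM in the bHLH pool. With 2258 UMIs it was the most counted member, and with 12 UMIs in 10 cells it was also among the 2 most counted in the bHLH pool (ratio 203, 116 to 394). GRMZM2G120151 had a median of 559 and a highest cell of 3300 TPM in the pre-meiotic pool, against 0 and 156 TPM in the bHLH pool (ratio 1060, 293 to 8755). For both, the highest cell of the bHLH pool stayed under the pre-meiotic lower quartile, 226 TPM for GRMZM2G036966 and 228 TPM for GRMZM2G120151.

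GRMZM2G108865 was the most widespread member, with a UMI in 95 of 96 pre-meiotic cells (99.0%, exact interval 94.3% to 99.97%) and none in the bHLH pool. Its median was 500.3 TPM and its highest cell 3148 TPM. Against a floor of 3 UMIs over the bHLH pool it was at least 654-fold higher in the pre-meiotic pool, and the lower end of the exact interval was 532. GRMZM2G378490 also had no UMI in the bHLH pool. It was seen in 85 pre-meiotic cells, with a median of 244 and a highest cell of 2099 TPM, at least 309-fold above the same floor, with a lower end of the exact interval of 250.5. These 2 members thus had no cell of the bHLH pool above 0.

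GRMZM2G301089 had a median of 212 TPM and a highest cell of 1494 TPM in the pre-meiotic pool, against 0 and 161 TPM in the bHLH pool, where it was seen in 8 cells (ratio 101, 53.1 to 222). Here the highest cell of the bHLH pool lay above the pre-meiotic lower quartile of 79.3 TPM. GRMZM2G085964, the sparsest of the 7, was seen in 80 and 4 cells of the pre-meiotic and bHLH pools, with means of 155 and 0.673 TPM (ratio 95.6, 37.0 to 353). Every cell of the pre-meiotic pool had a UMI on at least 3 of the 7, and 69 of 96 cells had all 7. In the bHLH pool 72 cells had none, and no cell had more than 2.

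**Figure D2:**
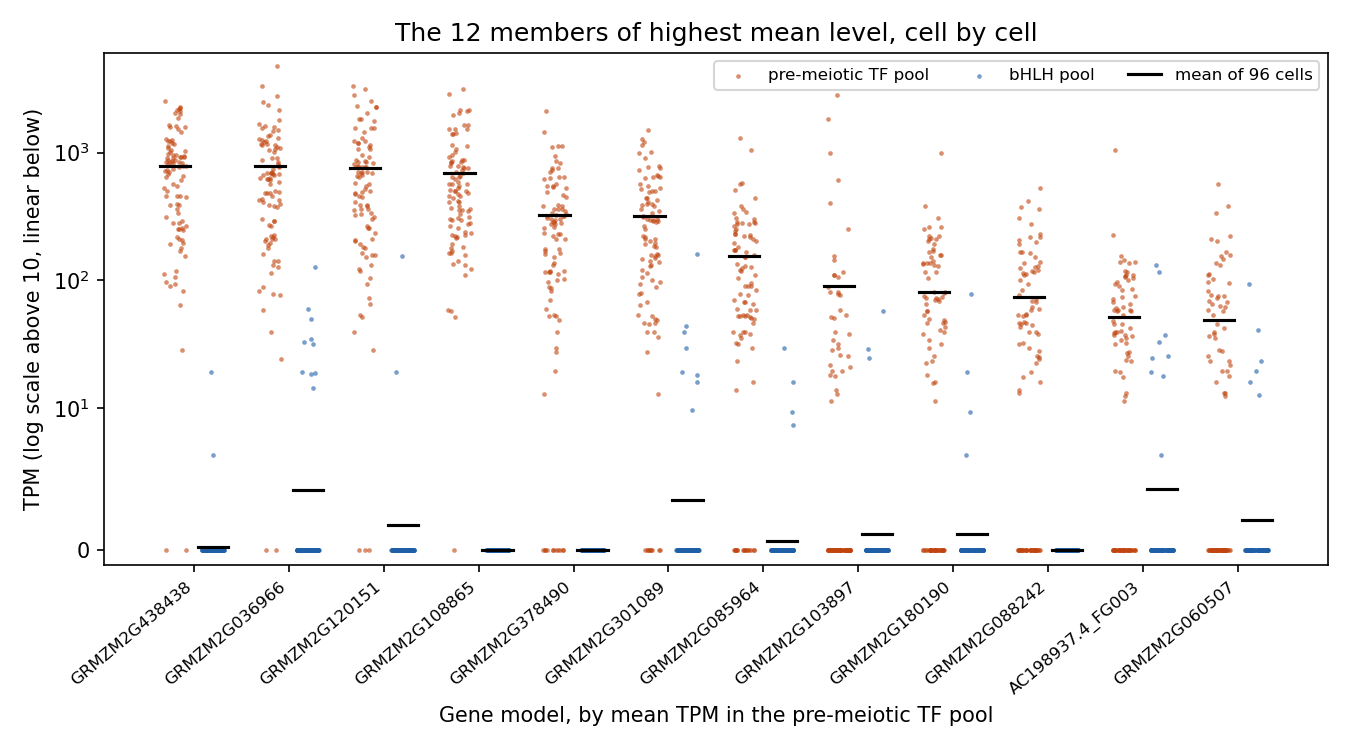
TPM of the 12 members of highest mean level in each of the 96 pre-meiotic cells (left, orange) and the bHLH pool (right, blue), on an axis that is logarithmic above 10 TPM and linear below, with black bars at the mean. The first 7 have means of 155 to 790 TPM in the pre-meiotic pool, and most bHLH pool cells lie at 0 for all 12.

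Below the 7 the levels went on falling. HSF2 (GRMZM2G088242), named as a heat shock factor, a class of factors that bind the promoters of chaperone genes, averaged 74.8 TPM in the pre-meiotic pool. It was seen in 63 of 96 cells (65.6%, 55.2% to 75.0%), with a median of 39.2 and a highest cell of 526 TPM. HSF2 had no UMI in the bHLH pool, so its level in the pre-meiotic pool was at least 74.9-fold higher by the floor of 3 UMIs, with 60.4 as the lower end of the exact interval. HSF2 is the only member whose name matches one of the 23 GFP construct rows assigned to the pre-meiotic pool. Those constructs were assigned by name, with earlier results of these data known. Of the 23 names, 5 matched a gene model in the table used here. The 7 highest members have no informative name and so could not be matched. Whether any of the 7 is a transfected factor was not tested. The GFP_HSF2 row had 16 UMIs in 10 pre-meiotic cells and none in the bHLH pool. All 10 of these cells also had a UMI on the HSF2 gene model, which had 208 UMIs in all. Whether RNA of the construct was counted on the gene model was not tested.

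GRMZM2G180190, which has no row in the reference table, was seen in 62 and 4 cells of the pre-meiotic and bHLH pools. It averaged 81.4 and 1.19 TPM (ratio 53.5, 20.6 to 198). GRMZM2G103897 was concentrated in few cells. Its mean of 90.0 TPM in the pre-meiotic pool, against 1.16 TPM in the bHLH pool, came from 38 cells. Its median was 0 and its highest cell had 2794 TPM. Without that cell the mean was 61.6 TPM. AC198937.4_FG003, GRMZM2G060507 and GRMZM2G116640 followed, at 51.5, 49.2 and 48.7 TPM in the pre-meiotic pool and 4.30, 2.15 and 2.39 TPM in the bHLH pool. The pre-meiotic level of GRMZM2G116640 was 28.4 TPM by summed UMIs and 29.4 TPM over cells with at least 2000 genes.

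Members 14 to 20 by level averaged 30.7 to 42.7 TPM in the pre-meiotic pool. They are CNR9, GRMZM2G404897, GRMZM2G113165, GRMZM2G094304, AC190885.4_FG006, GRMZM2G059502 and GRMZM2G056469. GRMZM2G404897 averaged 39.98 TPM, and 24.1 TPM by summed UMIs. CNR9 (GRMZM2G023081) belongs to the cell number regulators, a family whose maize founder limits organ size. It was seen in 52 and 10 cells, with 134 and 10 UMIs in the pre-meiotic and bHLH pools (ratio 14.5, 7.63 to 30.9).

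In all, 14 members have an informative name in the reference table. Besides HSF2 and CNR9 they are ACO20, Bk2L8, AGA3a, myb42, HAK21, SGR1, CesA-1, ZCF37, WRKY29, tan1, XAT2 and PHYB. Each of these 12 had 27 to 64 UMIs in the pre-meiotic pool and 1 to 5 in the bHLH pool. ACO20 (GRMZM2G126732), named as an oxidase of the last step of ethylene synthesis, had 64 UMIs in 32 pre-meiotic cells and 1 UMI in the bHLH pool, a ratio of 69.2 whose interval runs from 12.0 to 2774.

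CesA-1 (GRMZM2G112336), a cellulose synthase, had 36 and 3 UMIs in the pre-meiotic and bHLH pools (ratio 13.0, 4.10 to 65.8). XAT2 (GRMZM2G098793), named as an arabinosyltransferase of xylan, had 28 and 2 UMIs (15.1, 3.81 to 131). Bk2L8 (GRMZM2G353276), a relative of the maize brittle stalk gene, had 27 and 4 UMIs (7.29, 2.54 to 28.7). In Bk2L8 1 shallow cell weighed heavily: a cell of 953 UMIs with 1 UMI of the gene made up 54.3% of its summed TPM, and its mean of 20.1 TPM was 9.30 TPM without that cell.

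Among the named members are 2 further factors of transcription. WRKY29 (GRMZM2G040298), of a factor family known from plant defence, had 34 and 2 UMIs in the pre-meiotic and bHLH pools (ratio 18.4, 4.71 to 158). The MYB factor gene myb42 (GRMZM2G419239) had 49 and 5 UMIs (10.6, 4.24 to 34.1). Of other kinds, PHYB (GRMZM2G124532), a red light photoreceptor, had 29 and 4 UMIs (7.83, 2.75 to 30.7). SGR1 (GRMZM2G103881), a stay-green gene of chlorophyll breakdown, had 31 and 4 UMIs (8.38, 2.96 to 32.7). HAK21 (GRMZM2G438960), of a potassium transporter family, had 43 and 5 UMIs (9.29, 3.69 to 30.1), and tan1 (GRMZM2G039113), which orients the division plane of maize leaf cells, had 28 and 4 UMIs (7.56, 2.65 to 29.7). AGA3a and ZCF37 had 54 and 32 UMIs in the pre-meiotic pool and 4 and 1 in the bHLH pool. The named members were thus sparse in both pools, with median levels of 0 TPM in the pre-meiotic pool for all but HSF2 and CNR9.

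Some members are not separate genes in RefSeq. GRMZM2G024959 and GRMZM2G102927 share 1 RefSeq gene, had 60 and 59 UMIs over both pools and differed in 1 of the 192 cells' counts. GRMZM2G047414 and GRMZM2G348602 likewise share 1 RefSeq gene, had 44 and 43 UMIs and differed in 1 cell. Each such pair is therefore uncertain as 2 members. SGR1 has a second ID, GRMZM2G379563, with 38 UMIs against 35 and a difference in 3 cells, yet that row is no member, since it was seen in 21.9% of pre-meiotic pool cells and 5.21% of bHLH pool cells. For AGA3a (GRMZM2G050273) the second ID, GRMZM2G050177, was seen in 78.1% and 45.8% of pre-meiotic and bHLH pool cells, far above the member's own 34.4% in the pre-meiotic pool.

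A reference row was found for 85 of the 128 members (66.4%), close to the 70.3% of all gene models seen in at least 20% of pre-meiotic pool cells. RefSeq marks 2 of the 85 as involving a transcribed pseudogene. Among members placed in the gene order of that assembly, GRMZM2G475265 and GRMZM2G175927 are direct neighbours, and GRMZM2G420743 and GRMZM2G420733 lie 2 places apart.

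Pathway lists were matched by symbol, and their counts of members stand beside the 0.324% of all gene models and 1.52% of those detected in the pre-meiotic pool that the rule took. The bases differ: list totals are genes with a UMI, and both shares count in the left-out genes that meet the rule. Of 356 transcription factor genes with a UMI, 3 are members (HSF2, WRKY29 and myb42) and 4 are mainly in the bHLH pool by the mirrored rule. Detection in at least 20% of cells of either pool held for 127 of these genes, of which 10 were at least 2-fold higher in the pre-meiotic pool and 7 at least 2-fold lower, on the scale of mean TPM plus 10. Over all 10737 gene models so detected, 4.61% were at least 2-fold higher and 4.10% at least 2-fold lower. The cell wall list had 2 members (Bk2L8 and CesA-1) of 31 genes, the transporter list 1 (HAK21) of 51 and the heat shock list 1 (HSF2) of 27. In the heat shock list 2 of 23 detected genes were at least 2-fold higher in the pre-meiotic pool and 7 at least 2-fold lower, with a median log2 ratio of -0.75, whereas HSF2 itself stood at 3.08.

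Counts of 0 are no result at these list sizes and that background. No member came from the lists of glutathione S-transferase (25 genes with a UMI), wound and defence (81), jasmonate (45), endoplasmic reticulum folding (22), dehydrin and abscisic acid (60), cytochrome P450 (16), peroxidase and redox (18), kinase and phosphatase (49), autophagy and ubiquitin (15), anther regulator (47) or small RNA machinery genes (6). Of the genes left out by name that otherwise meet the rule, opr3 stands in the jasmonate list, nam1, ocl4 and zfl1 among the anther regulators, and these 3 with OFP16 among the transcription factors, so these counts are lower for it. The median log2 ratio of all detected gene models was -0.13. The glutathione S-transferases had a median log2 ratio of 0.81, with 6 of 14 at least 2-fold higher and 1 lower. Of 45 wound and defence genes 10 were at least 2-fold higher and 1 lower, with a median of 0.31. The former list holds gst6 and the latter a chitinase gene, both left out by name. The other lists with no member went both ways. Of 13 detected anther regulators 5 were at least 2-fold higher and 2 lower, and of 13 folding genes 4 and 0. Of 27 jasmonate genes it was 3 and 3, and of 13 autophagy and ubiquitin genes 0 and 3. Medians in that order were 0.46, 0.13, 0.27 and -0.63. Each remaining list had at most 1 gene past 2-fold in either direction.

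On the same scale the median member had a log2 ratio of 1.10, pre-meiotic pool over bHLH pool, and 81 of the 128 (63.3%) were at least 2-fold higher. The median over all gene models with a UMI was -0.027. The upper 7 ran from 3.95 to 6.28, and the other 121 had a median of 1.06. The added 10 TPM holds these values down for the sparse members: by summed UMIs the median ratio of the 118 members with a UMI in the bHLH pool was 12.5, with quartiles of 8.92 and 20.7. The lowest interval end over all members was 1.94. The rule chose members for their higher share in the pre-meiotic pool, and the intervals do not allow for that choice.

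Members were counted in all 96 pre-meiotic cells, but in very different numbers. A cell of the pre-meiotic pool had a UMI on a median of 37.5 members (quartiles 19 and 57.2, range 4 to 102), and a cell of the bHLH pool on a median of 3 (quartiles 1 and 6, range 0 to 19). The number was higher in deeper cells. Its Spearman rho with UMIs per cell was 0.77 over the 96 pre-meiotic cells and 0.68 over those of the bHLH pool. With the genes seen per cell, a count that includes the members, it was 0.95 and 0.73. Such correlations are descriptions, since the cells share a library and depth. Thinned to 5000 UMIs per cell, which leaves out 10 pre-meiotic cells and 1 of the bHLH pool, the medians were 13 and 0 members.

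**Figure D3:**
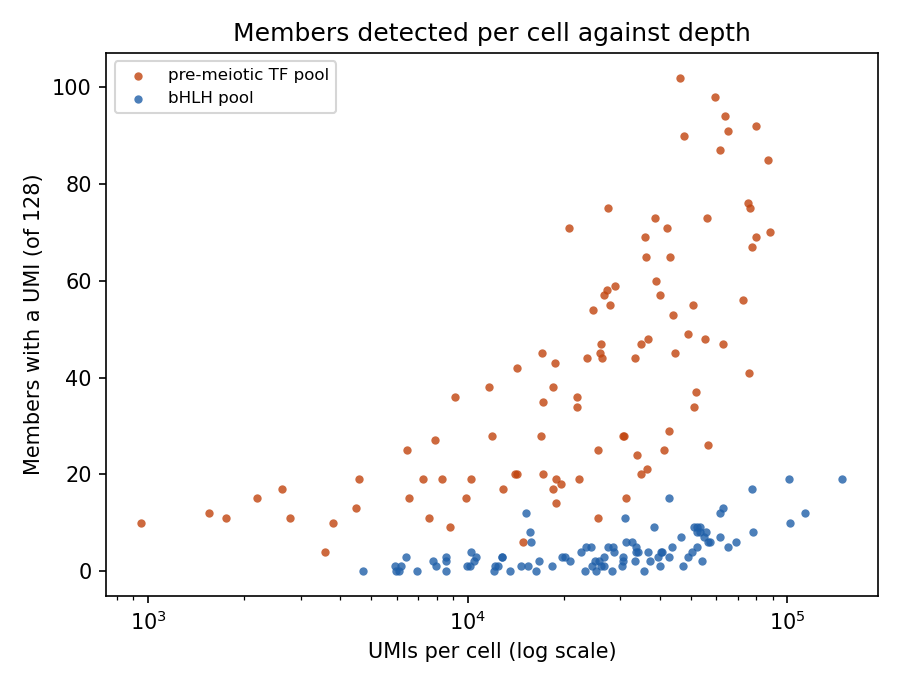
Number of the 128 members with a UMI in each cell against the UMIs of that cell (log axis), for the pre-meiotic pool (orange) and the bHLH pool (blue). Numbers run from 4 to 102 in the pre-meiotic pool and from 0 to 19 in the bHLH pool, and rise with depth in both.

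After thinning, the 2 tiers did not overlap in their shares of pre-meiotic cells. This largely follows from the cut by mean level in the same cells and is no support for it. The 7 were seen in 45.3% to 89.5% of 86 pre-meiotic pool cells and in 0% to 2.11% of 95 bHLH pool cells. GRMZM2G036966 led with 89.5%, followed by GRMZM2G108865 with 86.0% and GRMZM2G438438 with 83.7%. HSF2 and GRMZM2G180190 were each seen in 31.4% of thinned pre-meiotic cells, and the next members, GRMZM2G060507 and AC190885.4_FG006, in 18.6%. For the 121 the median was 5.81% of pre-meiotic pool cells and 0% of bHLH pool cells. Over the whole pool the median of the 121 was 40 UMIs in the pre-meiotic pool and 4 in the bHLH pool.

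In levels, a cell's summed member TPM had a median of 5122 in the pre-meiotic pool, with a range of 800.2 to 22748, and of 132 in the bHLH pool, with a range of 0 to 854. The lowest cell of the pre-meiotic pool thus lay just below the highest of the bHLH pool, while the pre-meiotic lower quartile was 2668 TPM. The 7 contributed a median of 3060 TPM per cell in the pre-meiotic pool and 0 in the bHLH pool, and the 121 contributed 1747 and 125 TPM. Single shallow cells weighed heavily in the levels of some sparse members. For GRMZM2G059252, 1 cell of 2189 UMIs made up 60.1% of the summed TPM, and GRMZM2G104390, AC212976.3_FG003 and GRMZM2G098128 had 37.4% to 48.4% in 1 cell each. For 33 of the 128 members a single cell held at least 20% of the summed TPM, and for 40 the highest level lay in a cell under 5000 UMIs.

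Within the pre-meiotic pool the 7 varied together from cell to cell. Over the 21 pairs among them, Spearman rho of TPM ran from 0.53 to 0.81 with a median of 0.68. The highest was between GRMZM2G438438 and GRMZM2G108865. Among the 7260 pairs of the other members the median rho was 0.17, and it was 0.16 among 7796 gene models that are no members and were seen in the same range of shares, 20.8% to 65.6% of pre-meiotic pool cells. From cell to cell the 121 were therefore about as alike as other gene models of that range, which were not matched to them in share within it. No gene models as widely seen as the 7 were set beside them, so the 0.68 cannot be called particular to the 7. The most abundant gene model, GRMZM2G028910, enters every cell's total and had a rho of -0.63 with the summed TPM of the 7. Its part in the likeness of the 7 was not tested.

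The 7 were also like the factor gene models left out by the rule. For GRMZM2G438438, GRMZM2G036966, GRMZM2G108865 and GRMZM2G378490, the gene model outside the members with the highest rho was nam1, a NAC factor gene (also named NAC119), at 0.86, 0.75, 0.81 and 0.74 over 96 cells. For GRMZM2G120151, GRMZM2G301089 and GRMZM2G085964 it was CSD4, at 0.82, 0.67 and 0.63. Both nam1, as GFP_NAC119, and CSD4 have a construct row in the table, with UMIs in 12 and 24 pre-meiotic cells. The rho between construct row and gene model was 0.26 for nam1 and 0.036 for CSD4. CSD4 is not among the genes left out by name, and it was widely seen in both pools. Its gene model had UMIs in 97.9% of pre-meiotic and 75% of bHLH pool cells. Among construct rows the most alike was GFP_bHLH97 for 5 of the 7, from 0.41 for GRMZM2G085964 to 0.61 for GRMZM2G120151, and GFP_bHLH103 for GRMZM2G036966 (0.58) and GRMZM2G378490 (0.48). Within the members, GRMZM2G438438 and GRMZM2G108865 were most like each other (0.81), and GRMZM2G036966, GRMZM2G301089 and GRMZM2G085964 were most like GRMZM2G120151, at 0.69, 0.76 and 0.70.

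Below the 7 such likeness thinned out. GRMZM2G180190 was most like zfl1 (0.58), a LEAFY homologue. HSF2 was most like the construct row GFP_bHLH97 (0.56), and its rho with its own construct row GFP_HSF2, which had UMIs in few cells, was 0.18. GRMZM2G103897 stood apart from the factors, with 0.12 for nam1 and 0.067 for ocl4, and was most like GRMZM2G015384 (0.75), a gene model with no informative name. AGA3a was most like AGA3b (GRMZM2G037265, 0.63), and SGR1 like its second ID. WRKY29 reached 0.43 with GFP_TCP23 and tan1 0.48 with GFP_NAC25.

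The summed level of the 4 factor gene models nam1, ocl4, OFP16 and zfl1 ran from 143 to 12001 TPM over the pre-meiotic cells. The summed level of the 7 followed it with a rho of 0.94, and that of the 121 with a rho of 0.73. The summed level of the 7796 other gene models gave 0.63 with the same factors. GRMZM2G028910, the most abundant gene model, moved the other way: its rho was -0.59 with the 4 factor gene models and -0.80 with the 121. With GRMZM2G028910 left out of the totals the values were 0.91 for the 7, 0.64 for the 121 and 0.50 for the other gene models. Summed TPM of the C4 mesophyll genes also moved with the members, at 0.50 with the 7 and 0.52 with the 121, and the part of these cell differences in the result was not tested.

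**Figure D4:**
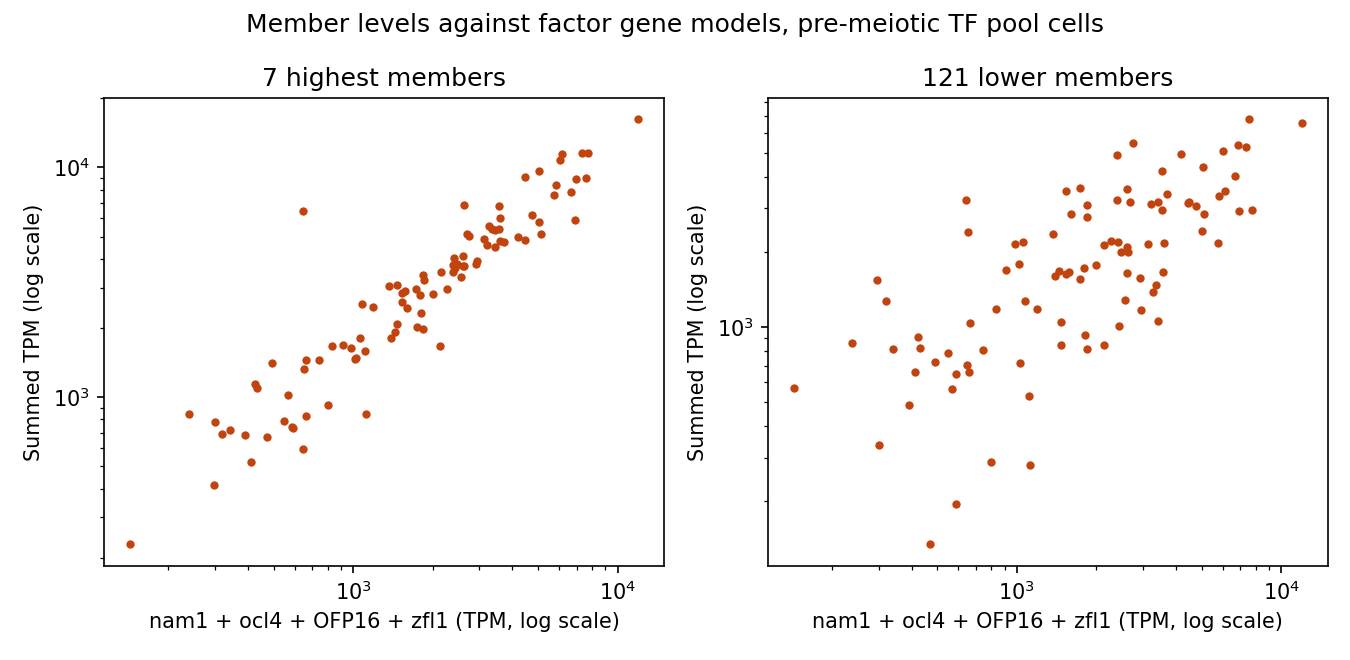
Summed TPM of the 7 highest members (left) and of the 121 lower members (right) against the summed TPM of nam1, ocl4, OFP16 and zfl1 in the 96 pre-meiotic cells, on log axes. Spearman rho is 0.94 for the 7 and 0.73 for the 121.

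Gene by gene, the 121 were set against a factor dose, the summed TPM of the 4 factor gene models and the 23 construct rows. Their median rho was 0.16, with quartiles of 0.083 and 0.25, beside 0.11 for the 7796 other gene models, with quartiles of 0.025 and 0.18. A positive rho was found for 112 of the 121 (92.6%), beside 81.0% of the other gene models. A rho of at least 0.3 was found for 13 of the 121 (10.7%), beside 4.43%. GRMZM2G180190 had the highest, 0.53, followed by HSF2 with 0.42, AC198937.4_FG003 with 0.41, GRMZM2G178509 with 0.38 and tan1 with 0.37. CNR9, ACO20, myb42 and HAK21 lay between 0.028 and 0.083. The 7 ran from 0.63 to 0.91. In sparse counts, values as weak as most of those of the 121 are no finding.

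**Figure D5:**
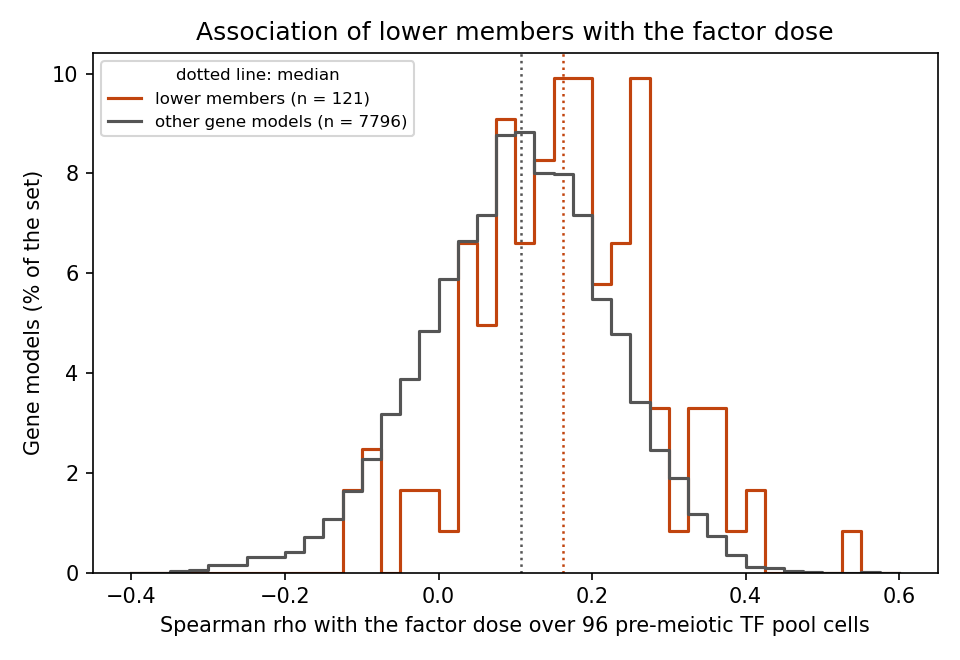
Distribution of Spearman rho between the TPM of a gene model and the factor dose over the 96 pre-meiotic cells, as a percent of the 121 lower members (orange) and of 7796 other gene models of the same range of detection (grey), with medians dotted. The medians are 0.16 and 0.11, and the distributions overlap over most of their range.

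PHAS transcripts, the readout of the study, had a moderate relation with the members across the pre-meiotic pool's cells. The summed TPM of 24-nucleotide class PHAS loci had a rho of 0.47 with the 7 and 0.63 with the 121, and that of the 21-nucleotide class 0.32 and 0.47. The cells share 1 library, and the part of GRMZM2G028910 in these values was not tested. No other gene models were set against the PHAS loci, so the relation cannot be called particular to the members.

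The 494 UMIs of members in the bHLH pool fell mostly on the sparse tier. The bHLH pool held 0.284% of the UMIs of the 7 over both pools, 7.20% of those of the 121 and 5.36% of those of the 23 construct rows. The construct rows had 1235 UMIs in the pre-meiotic pool and 70 in the bHLH pool, to which none of them is assigned. Since rows were assigned by name with earlier results of these data known, that low share may not be independent of the assignment. For the members, a low share of UMIs in the bHLH pool is largely set by the rule. The source of the members' UMIs in the bHLH pool was not tested.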

How the data were processed

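Single leaf protoplasts were profiled with CEL-seq2, per the labels' protocols, and the submitters' processing notes list HISAT2, SAMtools, UMI-tools and the build B73 RefGen_v3. No source used here states versions, annotation or cell filters. The deposited table, named TPM by the authors, was handled as a signal, because the UMI counts were divided by cell totals recycled down the rows. Multiplying back gave whole numbers for 1001042 of 1001042 nonzero values (tolerance 0.001 UMI), and TPM was recomputed per cell. All 192 cells had at least 500 genes, and no doublet caller was run on samples labelled as single protoplasts.

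Groups come from the titles. Protoplast numbers only count cells, so each pool is 1 sample and no p-value was made. Shares have exact Clopper-Pearson 95% intervals, and ratios of summed UMIs the exact binomial ones. A floor of 3 UMIs over a pool (0.916 TPM in the bHLH pool) gives the bounds. Log2 ratios use mean TPM plus 10. The recovery of UMIs and the rule for members were tested on simulated data. The members and lists were chosen with earlier results of these data known.

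Names come from the RefSeq table of Zm-B73-REFERENCE-NAM-5.0, which gave a row for 16091 IDs. Its build differs from that of the data, so no coordinates are given. No sequences were used here, and the planned description of proteins and promoters was not made. The genes named are the 20 highest members, members with an informative name, those at the edges of the rule, those most like the 10 highest, those with most of their level in 1 cell and those most seen after thinning. Genes with the highest rho with the factor dose, and the partners named for WRKY29, tan1, AGA3a and SGR1, were added after their values were seen. Python 3.11.15, numpy 2.4.6, scipy 1.17.1, pandas 2.3.3 and matplotlib 3.10.9 were used.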

Additional observations from a re-analysis of the deposited data

Results flagged for a closer look

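The GFP_control row, which enters no comparison above, had 7 UMIs in 7 pre-meiotic cells and 5 UMIs in 5 cells of the bHLH pool. Both counts are above the 3 UMIs that a count of 0 allows, which is a bound for 0 and no background level. The 23 construct rows assigned to the pre-meiotic pool also had 70 UMIs in the bHLH pool. The labels do not say that GFP_control was in either pool, and whether it was present was not tested.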

How the results depend on the processing

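The number of members, 128, depended on every threshold. It was 206 with a minimum of 15% of cells, 41 with 30%, 311 with a bHLH pool share at least 3 times lower, 54 with at least 10 times lower, 70 when 2 UMIs counted as detected (15 of them among the 128), 26 after thinning to 5000 UMIs (9 among the 128) and 267 over cells with at least 2000 genes (all 128 included). The sign of the median log2 ratio of members is largely set by the rule, but its size moved. From 1.10 it became 2.97 with a pseudocount of 1, 0.17 with 100 and 1.35 without GRMZM2G028910 in the totals. It was 1.72 on the deposited values and 4.59 over the 11 members of at least 50 TPM. The median number of members per cell was 13 thinned, 46 in cells with at least 2000 genes and 14 by 2 UMIs in the pre-meiotic pool, and 0 thinned and 0 by 2 UMIs in the bHLH pool. The median summed member level was 7721 TPM without GRMZM2G028910, 7074 on the deposited values and 2955 without the 3 highest members in the pre-meiotic pool. In the bHLH pool it was 170 TPM without GRMZM2G028910 and 196 on the deposited values. The rho of the summed members with the 23 construct rows was 0.57, and 0.81 over cells with at least 2000 genes. For these shifts the cause was not tested, beyond the fewer cells or UMIs that a setting keeps by construction. The median rho of the 121 with the factor dose stayed between 0.11 and 0.20 under 5 alternatives chosen after seeing the data, beside 0.060 to 0.17 for other gene models. The pre-meiotic mean levels of 32 named members were 0.51 to 6.36 times those given above on the deposited values, 0.44 to 1.30 times by summed UMIs per 1000000, 0.53 to 1.30 times over cells with at least 2000 genes and 0.68 to 0.99 times without the cell with most UMIs of the gene. No paired analysis was possible because protoplast numbers only count cells and each pool is 1 sample. Depth limits the 121, which rest on a median of 40 UMIs in the pre-meiotic pool.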
